A study of Mus musculus with 2 samples.

Results

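The Ikaros family genes Ikzf1 (ENSMUSG00000018654), Ikzf2 (ENSMUSG00000025997), Ikzf3 (ENSMUSG00000018168) and Ikzf4 (ENSMUSG00000002578) were followed through the cell types of the mouse lung. They are 4 of the 33696 genes counted in these libraries, and they were chosen by family membership, with earlier results of these data known. Single-cell RNA sequencing (10x Genomics 3' v3) was performed on sorted live cells from enzymatically dissociated lungs of adult mice. One library came from a mouse with the genotype label GFI1 KO and one from a mouse labelled GFI1 WT, each numbered 1. The study's methods describe duplicates, and further mice were not analysed here. The study's methods place all of its mice on the C57BL6/J background. GFI1 is a zinc finger transcriptional repressor of blood cells, and the comparison of the labels asks how lung cells differ in a germline knockout.

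Ikaros proteins bind DNA through zinc fingers near one end and pair with each other through zinc fingers at the other end. They recruit chromatin remodelling and deacetylase complexes, chiefly NuRD, and can repress or activate their targets. Ikzf1 encodes Ikaros, which is required for lymphocyte development. Ikzf2 encodes Helios, known from regulatory T cells and from several unconventional T cell types. Ikzf3 encodes Aiolos, known for its part in B cell maturation, and Ikzf4 encodes Eos, a partner of FOXP3 in regulatory T cells.

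The library labelled GFI1 KO held 10700 called cells and 116825535 gene UMIs, and the WT-labelled library held 19515 cells and 162599284 UMIs. After filters and removal of called doublets, 10149 and 18195 cells remained, with a median of 8839 and 4754 UMIs per cell over all genes used. The cell types were present in very different numbers: a cluster of classical monocyte-like cells held 3446 cells with the KO label and 76 with the WT label, and neutrophil-like cells numbered 8 and 1428. The classical monocyte-like cluster raised 7 of 8 markers of that type, but its leading genes also include the granule genes Prtn3 and Lcn2 beside the monocyte genes Vcan and F13a1. There was 1 library for each label here, so no test between labels could be made, and genotype, mouse and library cannot be told apart. The libraries shared 74 cell barcodes, and leaving those cells out moved no ratio of a member beyond counting error. Levels are given as CPM, the UMIs of a gene per 1000000 UMIs of the class of cells. Each is followed in parentheses by its 95% Poisson interval, and ratios carry exact binomial intervals. These intervals cover counting error only, and neither the variation between mice nor that between cells.

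Gfi1 itself, the targeted gene, was counted under both labels. Its level over all cells was 3.43 CPM (306 UMIs) with the KO label and 3.58 CPM (433 UMIs) with the WT label. In Foxp3-positive T cells 8 Gfi1 UMIs were counted with the KO label and 0 with the WT label, where 3 UMIs would be 10.3 CPM. In Trdc-positive cells 6 and 9 were counted. In the larger classes Gfi1 was higher with the KO label, at a ratio of 2.44 (1.81 to 3.29) in all T cells, 1.61 (1.11 to 2.27) in NK-like, 2.06 (1.40 to 2.98) in B-like and 8.42 (4.52 to 17.4) in myeloid cells. The counts come from the 3' end of transcripts, and the deleted part of the gene is not given in the sources used here, so they do not check the labels. Directions below are therefore between the library labelled GFI1 KO and the library labelled WT.

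T cells were divided by the UMIs of single genes that were withheld from clustering, as were the Ikaros family genes. Foxp3-positive T cells, defined by the master factor of regulatory T cells, numbered 25 with the KO label and 59 with the WT label. Other CD4 T cells numbered 87 and 502, CD8 T cells 371 and 1176, and Trdc-positive T cells, which carry the constant chain gene of the γδ receptor, 81 and 92. A further 208 and 668 T cells met no gate. In other CD4 T cells no Foxp3 UMI was counted, which does not show that Foxp3 was not expressed. The NK-like, B-like and myeloid classes, named from marker genes, held 218, 946 and 7782 cells with the KO label and 2033, 3101 and 7115 with the WT label. Surface antibody tags bore on the T cell gates: the CD4 tag was present on 100% and 98.3% of Foxp3-positive cells, and the CD8a tag on 97.8% and 98.7% of CD8 T cells. Of Trdc-positive cells, 0% carried the CD4 tag with the KO label and 10.9% with the WT label.

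Each member had its own pattern over the lung. Ikzf1 was spread over all blood cells, Ikzf2 reached its highest levels in Foxp3-positive and Trdc-positive T cells, and Ikzf3 was high in lymphoid cells and nearly absent from macrophages. Ikzf4 was sparse everywhere and was highest in Foxp3-positive cells. Endothelial-like cells, which should lack the lymphoid members, served as a reference for low levels. There Ikzf1 stood at 7.64 CPM with the KO label and 3.34 CPM with the WT label, Ikzf2 at 10.2 and 6.10 CPM, and Ikzf3 at 12.7 and 1.43 CPM. With the KO label these are 3, 4 and 5 UMIs, and the 5 of Ikzf3 lay in 1 of 107 cells, so that the Ikzf3 reference is the WT-labelled value (0.801 to 2.36), 15 UMIs in 15 of 2094 cells. Ikzf4 was at 0 UMIs in 107 endothelial-like cells with the KO label, where 3 UMIs would be 7.64 CPM, and at 0.763 CPM with the WT label.

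**Figure D1:**
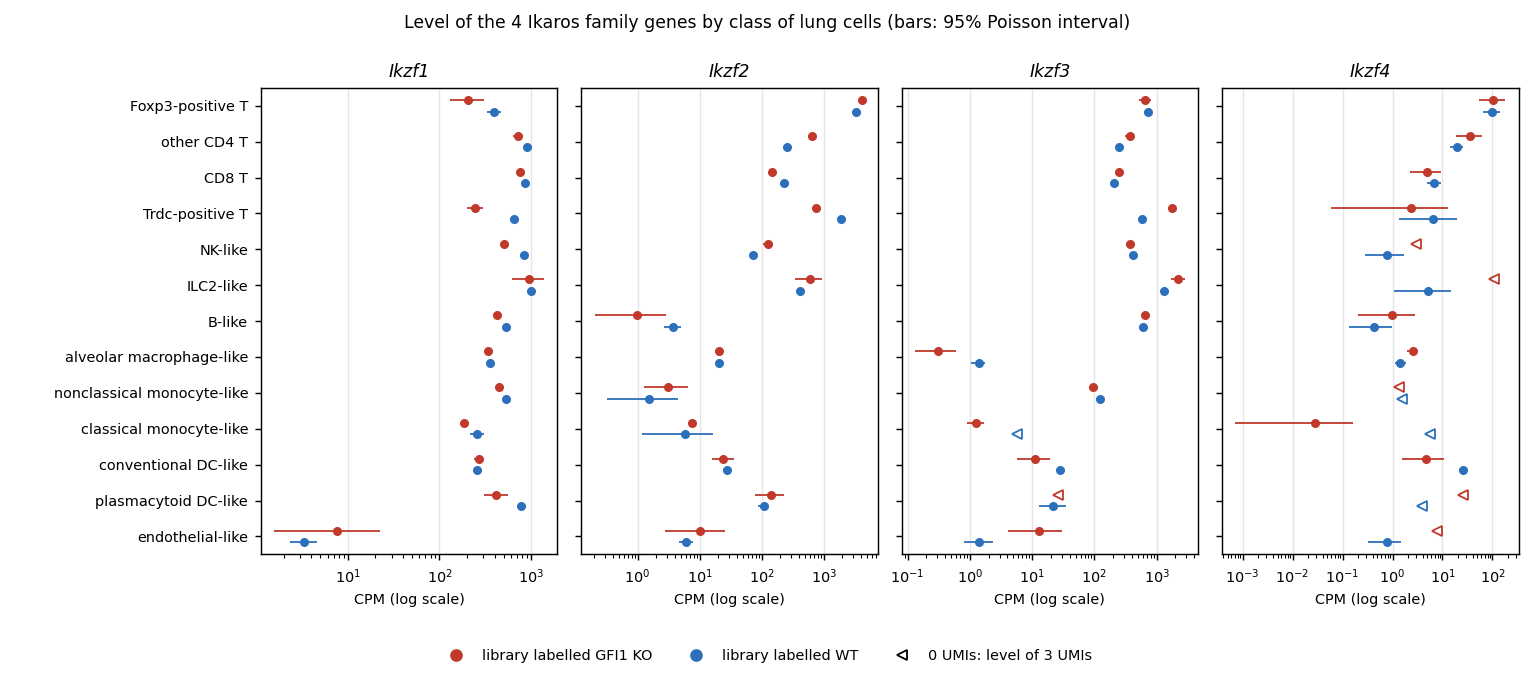
Level of each member (CPM, log axis) by class of lung cells, red for the KO label and blue for the WT label, with bars for the 95% Poisson interval and open triangles at the level of 3 UMIs where none was counted. Ikzf2 reaches 4145 and 3275 CPM in Foxp3-positive T cells, and Ikzf1 lies at 7.64 and 3.34 CPM in endothelial-like cells.

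The order of the levels was as follows. With the WT label Ikzf1 ran from other CD4 T cells (913 CPM, 873 to 954) through CD8 T cells (857, 832 to 881), NK-like (845, 824 to 865), Trdc-positive (656, 584 to 735), B-like (533, 520 to 547) and Foxp3-positive cells (396, 327 to 475) to myeloid cells (327, 322 to 331). CD8 and NK-like cells overlapped in their intervals, as did other CD4 and CD8 T cells and the Foxp3-positive and myeloid classes. With the KO label CD8 (753 CPM, 713 to 794) and other CD4 T cells (715, 628 to 811) were again at the top and overlapped. There Foxp3-positive (206, 132 to 306) and Trdc-positive cells (245, 200 to 297) were at the bottom and did not differ from myeloid cells (261, 258 to 265) beyond their intervals.

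Ikzf2 with the WT label was at 3275 CPM (3070 to 3490) in Foxp3-positive and 1922 (1796 to 2053) in Trdc-positive cells, followed by other CD4 (255, 235 to 277) and CD8 T cells (230, 218 to 243), which overlapped. NK-like cells (73.4 CPM) and myeloid cells (19.3 CPM) were lower, and B-like cells (3.68 CPM, 2.67 to 4.94) were not above the endothelial-like level. With the KO label the order of these classes was the same, and the pairs that overlapped were Trdc-positive (749, 669 to 836) with other CD4 cells (657, 573 to 749) and CD8 (147, 130 to 166) with NK-like cells (127, 106 to 151). The T cells that met no gate held Ikzf2 at 550 CPM (502 to 601) with the KO label and 497 CPM (472 to 523) with the WT label. They held 15.2% and 16.5% of all Ikzf2 UMIs, beside 15.2% and 10.9% in Foxp3-positive cells.

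Ikzf3 with the WT label was at 729 CPM (634 to 834) in Foxp3-positive, 601 (587 to 615) in B-like and 588 (519 to 663) in Trdc-positive cells, the last of which overlapped with both others. NK-like cells followed at 419 CPM, other CD4 T cells at 247, CD8 T cells at 204 and myeloid cells at 9.23. With the KO label Trdc-positive cells were far above the rest of these classes at 1773 CPM (1649 to 1905), ahead of Foxp3-positive (651, 513 to 815) and B-like cells (646, 617 to 675), which overlapped. Outside the gated classes, ILC2-like cells, innate lymphocytes of type 2 immunity, held Ikzf3 at 2216 CPM (1703 to 2835, 8 cells) with the KO label and 1329 CPM (1238 to 1426, 135 cells) with the WT label.

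Ikzf4 was at 103 CPM (53.1 to 180) with the KO label and 96.3 CPM (64.0 to 139) with the WT label in Foxp3-positive cells, on 12 and 28 UMIs. Among the gated T cells, other CD4 T cells followed at 35.3 (18.3 to 61.7) and 19.5 CPM (14.1 to 26.2), and CD8 T cells at 5.0 and 6.89 CPM. Outside T cells, conventional DC-like cells with the WT label were at 25.5 CPM (21.6 to 29.9). An Ikzf4 UMI was found in 12.7% of WT-labelled mesenchymal-like cells, against 5.98% of other CD4 T cells. The Foxp3-positive and other CD4 intervals overlapped with the KO label and were apart with the WT label. NK-like cells held 0 and 6 Ikzf4 UMIs and B-like cells 3 and 5.

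Shares of cells with a UMI, after each cell was thinned to 1500 UMIs, gave the same outline. Ikzf2 was found in 91.7% of Foxp3-positive cells with the KO label and 81.4% with the WT label, against 1.04% and 0.843% of endothelial-like cells. At full depth the Foxp3-positive shares were 92.0% and 86.4% at medians of 4268 and 4640 UMIs per cell, and the endothelial-like shares 3.74% and 2.15% at medians of 3391 and 4561.5. Thinned B-like cells held an Ikzf3 UMI in 54.4% and 53.6% of cells and an Ikzf2 UMI in 0.22% and 0.196%, the latter not above the endothelial-like share.

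A ratio of at least 2 or at most 0.5 between labels was used to count members, in classes where both sums together held at least 30 UMIs. In Foxp3-positive cells 0 of 4 members passed, where 12.0% of all genes did. In other CD4 T cells 1 of 4 passed (Ikzf2), against 12.2% of genes, and in CD8 T cells 0 of 4, against 7.13%. In Trdc-positive cells all 3 members that could be read passed (Ikzf1, Ikzf2 and Ikzf3), where the share of genes was also the highest, 21.6%. The T cells that met no gate were not counted in this way. Their ratios were 0.689 (0.624 to 0.760) for Ikzf1, 1.11 (0.996 to 1.23) for Ikzf2 and 1.87 (1.70 to 2.05) for Ikzf3. NK-like cells had 0 of 3 (10.1% of genes) and B-like cells 1 of 3 (Ikzf2, 3.96% of genes). The B-like count rests on 3 and 44 UMIs, at levels not above those of endothelial-like cells, and was not read as a difference. Myeloid cells had 2 of 4 (Ikzf3 and Ikzf4) with 20.1% of genes, and there the median gene itself was lower by 0.162 on the log2 scale. Among single myeloid types, 1 of 4 passed in alveolar macrophage-like cells (Ikzf3, 4.38% of genes) and 0 of 2 in nonclassical monocyte-like cells (3.27%). The alveolar macrophage-like Ikzf3 levels, 0.306 and 1.38 CPM, were not above the WT-labelled endothelial-like level.

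**Figure D2:**
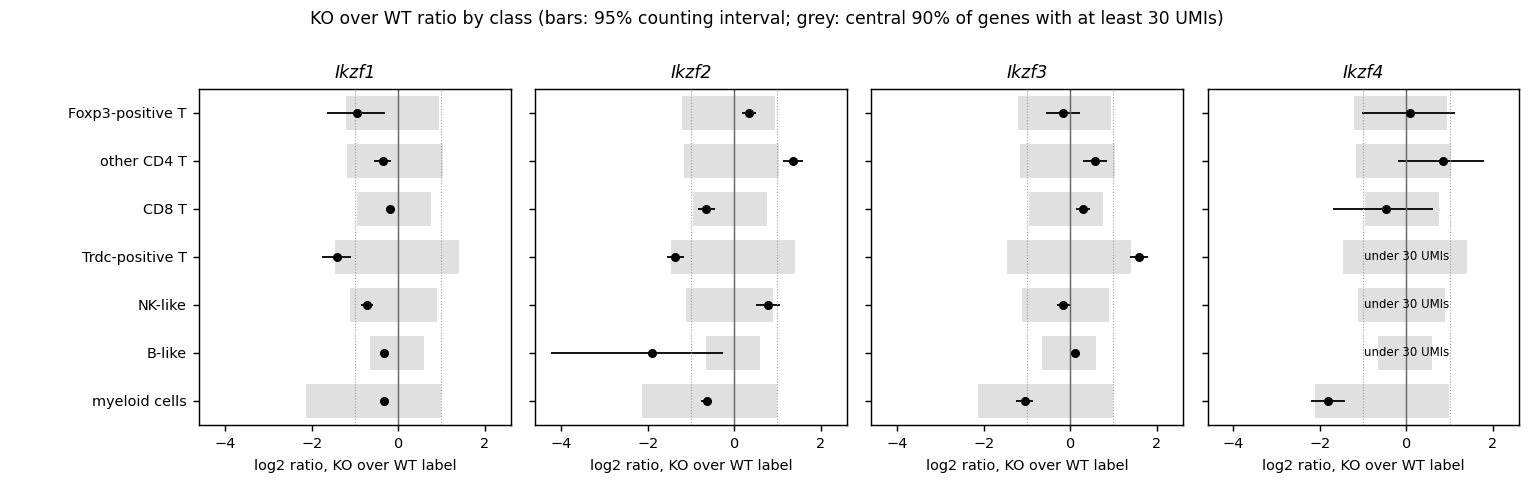
Log2 ratio of each member's CPM, KO label over WT label, in 7 classes, with bars for the 95% counting interval, dotted lines at a ratio of 2 and 0.5, and grey bands for the central 90% of all genes with at least 30 UMIs. All 7 Ikzf1 points lie left of 0 and inside their grey bands, and the Ikzf2 point of other CD4 T cells and the Ikzf3 point of Trdc-positive cells lie to the right of theirs.

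Ikzf1 was lower with the KO label in all 7 classes, although by a small factor in most of them. The ratio was lowest in Trdc-positive cells at 0.373 (0.296 to 0.468), then 0.52 (0.32 to 0.812) in Foxp3-positive and 0.606 (0.553 to 0.663) in NK-like cells. It was 0.784 (0.683 to 0.896) in other CD4 T cells, 0.879 (0.827 to 0.934) in CD8 T cells, 0.80 (0.753 to 0.849) in B-like cells and 0.80 (0.785 to 0.815) in myeloid cells. Ratios of this size were common: 53.5% of genes in other CD4 T cells and 68.9% in CD8 T cells were at least as far from 1 as Ikzf1. In Trdc-positive cells 10.5% of genes were. Each of the 14 other ways of processing the data that were run kept Ikzf1 below 1 in all 7 classes. With γδ T cells taken from named clusters, mostly different clusters were compared under the labels, as described below.

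Within finer groups the direction of Ikzf1 mostly held. In 7 of the 8 larger T cell clusters the GFI1 KO-labelled cells lay between 0.762 and 0.913 of the WT level, and in the eighth, cluster 8, the ratio was 0.424 (0.142 to 2.08) with only 2 WT-labelled cells. The intervals reached 1 in clusters 1, 3, 5, 8 and 12. NK-like cells were lower with and without a UMI of the maturation marker Klrg1, at ratios of 0.655 (0.574 to 0.744) and 0.568 (0.499 to 0.645). Among myeloid cells, nonclassical monocyte-like cells held 450 CPM (423 to 479) against 537 CPM (505 to 571), a ratio of 0.838, and plasmacytoid DC-like cells 418 CPM (13 cells) against 772 CPM (113 cells), a ratio of 0.541 (0.395 to 0.727). Alveolar macrophage-like cells were almost level at 342 and 355 CPM, 0.964 (0.939 to 0.989), and conventional DC-like cells at 269 and 255 CPM did not differ beyond counting error.

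Neutrophil-like cells stood low for Ikzf1 with the WT label, at 89.6 CPM (80.8 to 99) in 1428 cells. The 8 neutrophil-like cells with the KO label held 17 UMIs or 170 CPM (98.9 to 272). Classical monocyte-like cells were at 184 CPM (180 to 189) and 260 CPM (218 to 307). Their Ikzf1 level was thus below that of alveolar macrophage-like cells under both labels.

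Ikzf2 set Foxp3-positive cells apart from other CD4 T cells more than nearly any other gene. With the WT label it was 12.8-fold higher in Foxp3-positive cells (11.5 to 14.3), the 20th highest ratio of 7854 genes, and with the KO label 6.31-fold higher (5.38 to 7.43), the 8th of 3326 genes. At least 2-fold higher in Foxp3-positive cells were Ikzf2 alone of 3 readable members with the KO label, with 5.50% of genes, and Ikzf2, Ikzf3 and Ikzf4 of 4 with the WT label, with 7.41% of genes. Ikzf4 was 4.95-fold higher (2.96 to 8.15) in Foxp3-positive cells with the WT label, and with the KO label 12 UMIs stood against 12, 103 against 35.3 CPM. Ikzf3 was 1.77-fold higher (1.31 to 2.37) with the KO label and 2.95-fold higher (2.51 to 3.47) with the WT label. Ikzf1 went the other way, at 0.287 (0.181 to 0.438) and 0.433 (0.356 to 0.523) of the level in other CD4 cells. The other CD4 class was not made up alike under the labels. Of its cells, 52.9% with the KO label and 14.5% with the WT label lay in a cluster named regulatory T from markers. The ratios under the labels therefore rest on unlike comparison cells, and whether Foxp3-positive cells were less distinct with the KO label was not tested.

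Between labels, Ikzf2 in Foxp3-positive cells was at 4145 CPM (3784 to 4532, 484 UMIs in 25 cells) against 3275 CPM (3070 to 3490, 952 UMIs in 59 cells), a ratio of 1.27 (1.13 to 1.41). The median cell held 14 Ikzf2 UMIs with the KO label and 11 with the WT label, with quartiles of 4 to 31 and 3 to 24.5, so the cells overlapped widely. A single GFI1 KO-labelled cell held 92 of the 484 UMIs, and with the cell with the most Ikzf2 UMIs left out under each label the log2 ratio was 0.23, beside 0.34 with all cells. The cell with 92 UMIs belonged to the cells with 1 Foxp3 UMI, where the level was 5717 CPM with the KO label and 2422 CPM with the WT label. Without the highest cell under each label these levels were 4657 and 2045 CPM. In the 4 and 21 cells with 2 Foxp3 UMIs the order was the other way, at 1752 and 3541 CPM without the highest cell. That cell held 64.0% of these Ikzf2 UMIs with the KO label and 19.5% with the WT label, so 4 cells cannot show the size of this gap. In cells with at least 3 Foxp3 UMIs the levels were 3090 CPM (2640 to 3594) and 3236 CPM (2913 to 3585), which overlap. With at least 2 Foxp3 UMIs required, the log2 ratio turned to -0.21, and when each cell was thinned to 1500 UMIs it was -0.11.

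Foxp3-positive cells also differed in makeup. A UMI of Il1rl1, the IL-33 receptor gene of tissue regulatory T cells, was found in 6 of 25 cells with the KO label and 31 of 59 with the WT label. In the cells with Il1rl1, Ikzf2 was at 4390 and 4178 CPM, a ratio of 1.05 (0.882 to 1.25). In the cells without it Ikzf2 was at 4027 CPM (3596 to 4496) and 2138 CPM (1893 to 2406), and the highest cell held 29.0% and 24.4% of these UMIs. In the regulatory T cluster as a whole, 109 and 185 cells named from markers, Ikzf2 was at 2040 and 1913 CPM, a ratio of 1.07 (0.978 to 1.16). A Foxp3 UMI was found in 21 and 46 of these cells, with Ikzf2 at 4700 CPM (4288 to 5141) and 3781 CPM (3530 to 4045). The 88 and 139 cells without one held 1122 CPM (1005 to 1250) and 1200 CPM (1113 to 1293), which overlap.

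**Figure D3:**
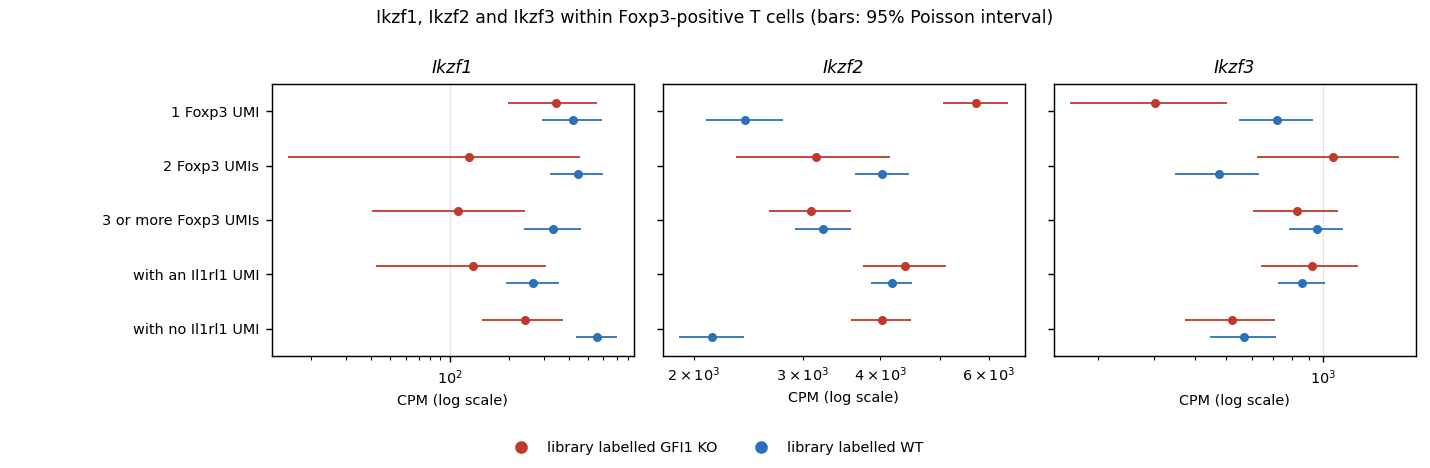
Ikzf1, Ikzf2 and Ikzf3 (CPM, log axis) in Foxp3-positive T cells by their Foxp3 UMIs and by a UMI of Il1rl1, with the KO label (red) and the WT label (blue) and bars for the 95% Poisson interval. Ikzf2 is at 5717 and 2422 CPM in cells with 1 Foxp3 UMI and overlaps at 3090 and 3236 CPM in cells with at least 3.

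Ikzf3 and Ikzf4 in Foxp3-positive cells did not differ between labels beyond counting error. Ikzf3 stood at 651 CPM (76 UMIs) against 729 CPM (212 UMIs), a ratio of 0.892 (0.677 to 1.17), and Ikzf4 at a ratio of 1.07 (0.494 to 2.17), an interval wide enough to hold a 2-fold difference in either direction. Ikzf1 was at 206 CPM on 24 UMIs and 396 CPM on 115 UMIs. In the regulatory T cluster, where only 21 of 109 and 46 of 185 cells held a Foxp3 UMI, the Ikzf1 ratio was closer to 1, 0.762 (0.641 to 0.902).

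In other CD4 T cells Ikzf2 was 2.57-fold higher (2.19 to 3.01) with the KO label, 657 CPM on 223 UMIs against 255 CPM on 564 UMIs. It was found in 37.9% of cells (33 of 87) against 9.76% (49 of 502). The makeup of the class differed as well. Of these CD4 cells without a counted Foxp3 UMI, 52.9% (46 cells) with the KO label and 14.5% (73 cells) with the WT label lay in the regulatory T cluster. That cluster was led by Il1rl1, Tnfrsf4, Foxp3 and Ctla4, and only 21 of its 109 and 46 of its 185 cells held a Foxp3 UMI. Within that cluster Ikzf2 was not higher, at 917 CPM (783 to 1068) against 1149 CPM (1036 to 1270), a ratio of 0.799 (0.661 to 0.961). The clusters' shares with the KO label combined with the WT levels gave a ratio of 2.56. For Ikzf1 and Ikzf3 they gave 0.915 and 1.37, beside measured ratios of 0.784 and 1.49. Whether makeup accounts for these differences was not tested.

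In the CD4 T cluster led by St8sia6, Cd4 and Siah3 it was found in 3 of 34 cells with the KO label and 10 of 383 with the WT label, and 1 cell under each label held 54 of the 56 and 54 of the 65 UMIs. Without that cell the levels were 16.02 and 7.19 CPM. Genes known from regulatory T cells were read in the whole class of other CD4 T cells: of 11 that could be read, 6 passed 2-fold upwards (Il2ra, Ctla4, Tnfrsf9, Nrp1, Areg and Capg) and 0 downwards, where 5.39% of all genes passed upwards and 6.86% downwards. The median of the list was 1.31 on the log2 scale, against 0.00380 for all genes. Among them Ctla4, a checkpoint receptor, was 4.78-fold higher (4.16 to 5.49).

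Ikzf3 in other CD4 T cells was 1.49-fold higher (1.22 to 1.81) with the KO label, at 368 and 247 CPM. Within the regulatory T cluster it was at 417 CPM (328 to 523) against 453 CPM (383 to 532), a ratio of 0.921 (0.688 to 1.22). In the St8sia6 cluster it was at 170 CPM (106 to 257) against 121 CPM (104 to 140), a ratio of 1.40 (0.856 to 2.18), so neither cluster showed a difference beyond counting error.

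Ikzf4 in other CD4 T cells, where 12 and 43 UMIs were counted, had a ratio of 1.81 (0.871 to 3.50), and in CD8 T cells, with 9 and 38 UMIs, one of 0.726 (0.309 to 1.53). Both intervals hold 1.

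CD8 T cells had less Ikzf2 and slightly more Ikzf3 with the KO label. Ikzf2 was at 147 CPM (264 UMIs) against 230 CPM (1269 UMIs), a ratio of 0.638 (0.556 to 0.729), and Ikzf3 at 250 and 204 CPM, a ratio of 1.23 (1.10 to 1.37). A cluster whose leading genes include Gzmm and Klrc1 took 44.2% of CD8 T cells with the KO label and 7.48% with the WT label, and a cluster whose leading genes include Ccr9 and Dapl1 took 31.3% and 74.9%. In the Gzmm cluster Ikzf2 was at 20.7 CPM (12.5 to 32.4) against 141 CPM (111 to 177), a ratio of 0.147 (0.0839 to 0.245). In the Ccr9 cluster it was at 240 CPM (199 to 288) and 205 CPM (191 to 220), and did not differ beyond counting error. Ikzf3 was at 210 against 195 CPM in the Gzmm cluster, a ratio of 1.07 (0.843 to 1.38), and at 121 against 159 CPM in the Ccr9 cluster, 0.765 (0.577 to 0.998).

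**Figure D4:**
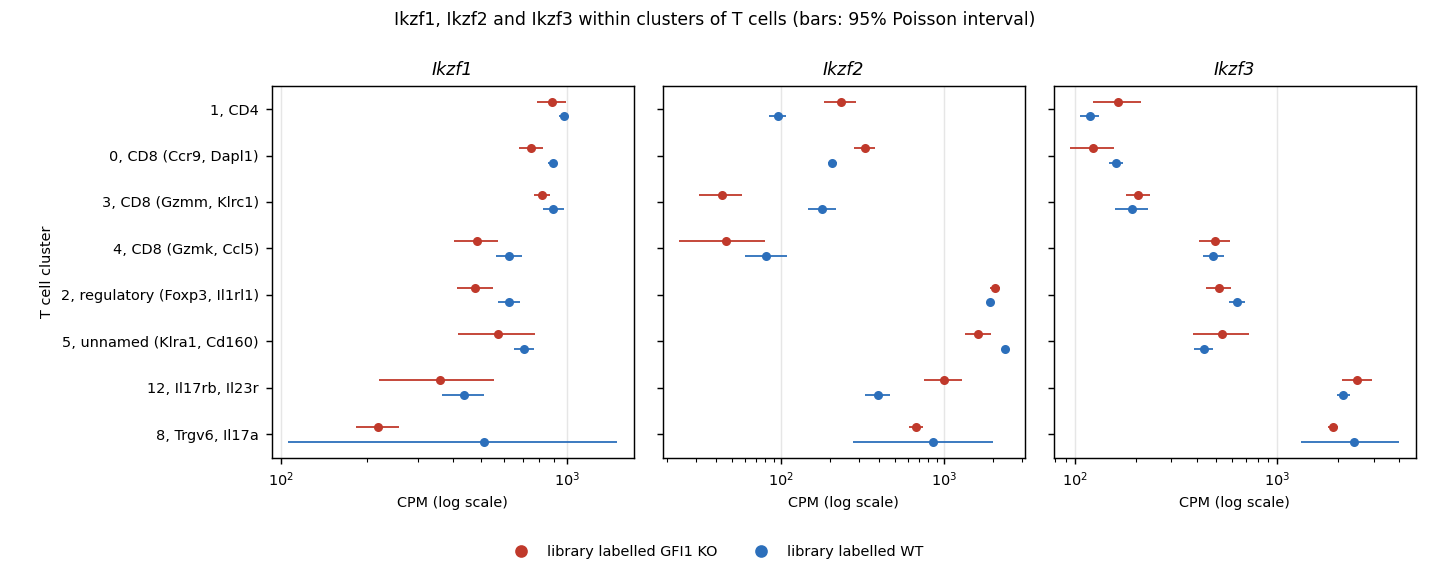
Ikzf1, Ikzf2 and Ikzf3 (CPM, log axis) in the 8 larger clusters of T cells with the KO label (red) and the WT label (blue), with bars for the 95% Poisson interval. Ikzf2 is near 2000 CPM under both labels in the regulatory T cluster, Ikzf3 reaches 1896 CPM or more in the clusters led by Trgv6 and Il17a and by Il17rb and Il23r, and the red Ikzf1 point lies left of the blue one in each cluster.

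Trdc-positive cells showed large differences in 3 members. Ikzf3 was at 1773 CPM (753 UMIs) with the KO label and 588 CPM (267 UMIs) with the WT label, 3.02-fold higher (2.62 to 3.48). Ikzf2 was at 749 CPM (318 UMIs) against 1922 CPM (873 UMIs), a ratio of 0.39 (0.342 to 0.444), and Ikzf1 at 245 CPM (104 UMIs) and 656 CPM (298 UMIs). The median cell held 8 Ikzf3 UMIs with the KO label and 1 with the WT label, with quartiles of 3 to 13 and 0 to 3. For Ikzf2 the medians were close, 3 and 2.5 UMIs, with quartiles of 1 to 5 and 0 to 15.25. An Ikzf2 UMI was found in 80.2% and 71.7% of cells, and after thinning in 53.8% and 54.9%. The Ikzf2 difference thus lay in the cells with the most UMIs, and not in the median or the share. Ikzf4 was at 1 and 3 UMIs, too few to read.

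These cells fell into different clusters under the labels. A cluster led by Trdv4, Trgv6 and Il17a, genes of IL-17-producing γδ T cells, took 71.6% (58 of 81) of Trdc-positive cells with the KO label and 1 of 92 with the WT label. A cluster led by Klra1, Trgc4, Trgv2 and Cd160 took 3.70% and 54.3% (50 of 92). In the WT-labelled cells of that latter cluster Ikzf2 was at 2959 CPM (2758 to 3171) and Ikzf3 at 247 CPM (191 to 313). In the GFI1 KO-labelled cells of the Trgv6 cluster Ikzf2 was at 775 CPM (681 to 880), Ikzf3 at 2163 CPM (2003 to 2332) and Ikzf1 at 160 CPM (119 to 211).

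The cluster whose leading genes include Il17rb and Il23r held 5 and 16 Trdc-positive cells. There Ikzf1 was at 431 CPM (186 to 850) against 459 CPM (312 to 652), a ratio of 0.939 (0.373 to 2.09), and Ikzf3 at 1941 and 2445 CPM, a ratio of 0.794 (0.538 to 1.14). Ikzf3 was thus high under both labels in this cluster, and neither Ikzf1 nor Ikzf3 differed beyond counting error. The Ikzf1 interval reaches down to about the 0.373 of all Trdc-positive cells, so these few cells cannot show whether Ikzf1 differed. Ikzf2 was found in 3 of 5 and 10 of 16 cells, and 1 KO-labelled cell held 82.9% of its UMIs. Without the highest cell under each label Ikzf2 was at 510 and 376 CPM.

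When γδ T cells were taken as the clusters named from γδ markers (146 and 67 cells) and not by the Trdc gate, the log2 ratio of Ikzf2 was 0.80 and that of Ikzf3 -0.13, the opposite direction of the gated values of -1.36 and 1.59. That set leaves out the Klra1 cluster, which could not be named from markers. Of its KO-labelled cells 133 lay in the Trgv6 cluster, and of its WT-labelled cells 65 lay in the Il17rb cluster. The ratios of this set therefore compare mostly different clusters. Ikzf1 was at -0.93 there, which does not show whether it differed between labels within a cluster.

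NK-like cells had little Ikzf2, and more of it with the KO label. It was at 127 CPM (128 UMIs) and 73.4 CPM (575 UMIs), 1.73-fold higher (1.41 to 2.09), with a thinned share of 11.9% (7.85 to 17.1) and 7.43% (6.31 to 8.67) of cells. The direction was the same with Klrg1 (1.49-fold, 1.10 to 1.99) and without it (1.96-fold, 1.5 to 2.55). Ikzf3 in NK-like cells was nearly level at 374 and 419 CPM, a ratio of 0.894 (0.802 to 0.995). ILC2-like cells held Ikzf2 at 598 and 423 CPM, a ratio of 1.41 (0.811 to 2.31), and Ikzf1 at 950 and 1002 CPM.

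B-like cells held Ikzf3 at nearly the same level, 646 CPM (617 to 675) against 601 CPM (587 to 615), a ratio of 1.07 (1.02 to 1.13). Ikzf1 was at 427 CPM (404 to 451) and 533 CPM (520 to 547). Ikzf2 was counted at 3 and 44 UMIs, a ratio of 0.268 (0.0533 to 0.836), but 1 WT-labelled cell held 18 of the 44 UMIs. Neither level was above that of endothelial-like cells, so these UMIs were not read as expression or as a difference.

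Pooled myeloid cells held less Ikzf2, Ikzf3 and Ikzf4 with the KO label, and they were made up of different types. Ikzf2 was at 12.3 CPM (11.6 to 13.2) and 19.3 CPM (18.2 to 20.3) over all of them, a ratio of 0.641. In alveolar macrophage-like cells, which held most of it, Ikzf2 was at 20.8 and 20.2 CPM, a ratio of 1.03 (0.928 to 1.15). The pooled level with the KO label was not clearly above the KO-labelled endothelial-like level, which rests on 4 UMIs. KO-labelled classical monocyte-like cells held Ikzf2 at 7.61 CPM (6.72 to 8.58). The myeloid shares with the KO label combined with the WT levels of each type gave a ratio of 0.581 for Ikzf2 and 0.243 for Ikzf4, beside measured ratios of 0.641 and 0.286. For Ikzf3 they gave 0.813 beside a measured 0.483, and for Ikzf1 0.958 beside 0.80, so that for these members the measured ratio was the lower one. These combined ratios have no interval and are rough. Classical monocyte-like cells held 35104494 of the 76933765 KO-labelled myeloid UMIs, and their WT level came from 76 cells. Those cells held 3 Ikzf2, 0 Ikzf3 and 0 Ikzf4 UMIs, where 3 UMIs would be 5.73 CPM. Ikzf3 was at 4.46 CPM and 9.23 CPM, a ratio of 0.483 (0.422 to 0.552), and both levels were above the WT-labelled endothelial-like level of 1.43 CPM. In alveolar macrophage-like cells Ikzf3 was at 0.306 CPM and 1.38 CPM (1.06 to 1.77), a ratio of 0.221 (0.0915 to 0.463), and neither level was above that endothelial-like level. Among myeloid types Ikzf3 was highest in nonclassical monocyte-like cells, the monocytes that patrol blood vessels, with 93.6 CPM (81.4 to 107) against 121 CPM (106 to 138), a ratio of 0.771 (0.637 to 0.932).

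Ikzf4 had a separate site among myeloid cells. Conventional DC-like cells held 152 of the 545 Ikzf4 UMIs with the WT label, 25.5 CPM (21.6 to 29.9), and 5 of 141 with the KO label, 4.66 CPM (1.51 to 10.9), a ratio of 0.182 (0.0584 to 0.435). All of these lay in the cluster led by Fscn1, Ccl22 and Cd209a, with 0 UMIs under either label in the cluster led by Xcr1 and Cd207, genes of cross-presenting dendritic cells. In the Fscn1 cluster the levels were 9.87 CPM (55 cells) against 42.8 CPM (336 cells), a ratio of 0.23 (0.0738 to 0.55). The WT-labelled UMIs came from 46 cells, and no cell held more than 17 of them. The 5 KO-labelled UMIs came from 3 of 111 conventional DC-like cells. Thinned shares of conventional DC-like cells with an Ikzf4 UMI were 1.85% (0.225 to 6.53) and 3.43% (2.04 to 5.36), which overlap. Ikzf3 in conventional DC-like cells was at 11.2 CPM (12 UMIs) against 28.2 CPM (168 UMIs), a ratio of 0.396 (0.201 to 0.711). A single WT-labelled cell held 21 of these UMIs, and the thinned shares of cells with an Ikzf3 UMI were 0.926% and 1.14%. Alveolar macrophage-like cells held 67 and 64 Ikzf4 UMIs, 2.56 CPM (1.99 to 3.25) and 1.43 CPM (1.10 to 1.82). Their ratio of 1.79 (1.25 to 2.57) ran opposite to that of pooled myeloid cells, although 67 of the 77 KO-labelled myeloid UMIs lay there. Mesenchymal-like cells held 1 and 67 Ikzf4 UMIs in 22 and 332 cells.

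Over whole libraries all 4 members were lower with the KO label: Ikzf1 at 286 and 394 CPM, Ikzf2 at 35.6 and 72.6, Ikzf3 at 56.4 and 131 and Ikzf4 at 1.58 and 4.51. These ratios of 0.727, 0.491, 0.430 and 0.350 lie beside those that the shares of the classes gave when every class was held at its WT level, 0.875, 0.579, 0.367 and 0.359. The latter are rough, since the WT level of classical monocyte-like cells again came from 76 cells. Myeloid cells held 78.7% of Ikzf1 UMIs with the KO label and 45.8% with the WT label. T cells held 55.7% and 58.3% of Ikzf2 UMIs, and B-like cells 39.0% and 45.4% of those of Ikzf3.

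**Figure D5:**
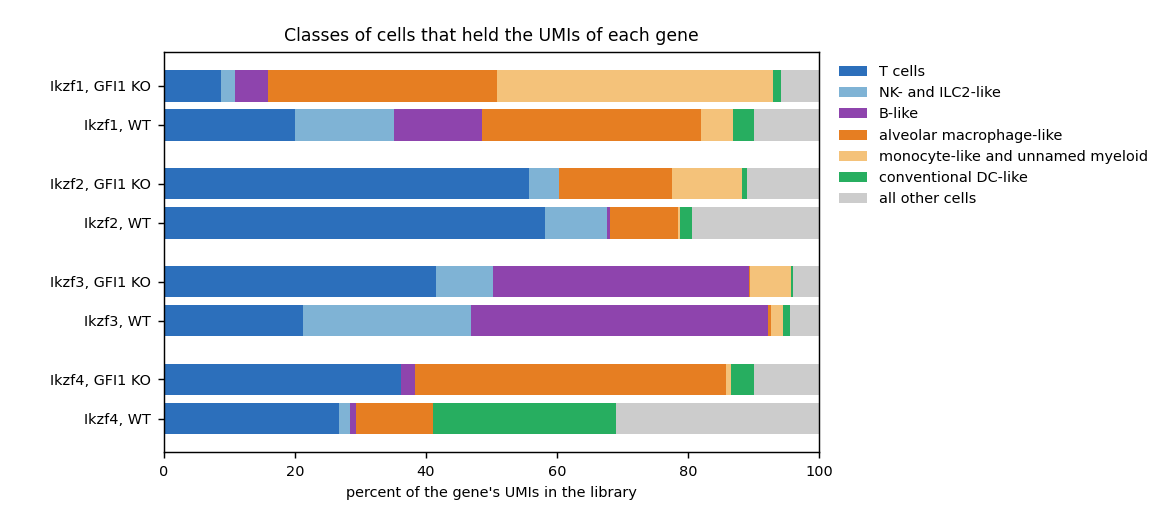
Share of each member's UMIs (percent of the gene's UMIs in the library) by class, with 1 bar for each gene and label. T cells hold 55.7% and 58.3% of Ikzf2, B-like cells 39.0% and 45.4% of Ikzf3, and conventional DC-like cells 3.55% and 27.9% of Ikzf4.

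Partners of the family were counted in the same way. Of 13 genes of the NuRD complex, 8 could be read in Foxp3-positive cells, 12 in Trdc-positive cells and 13 in the other classes, and 1 passed 2-fold downwards in Foxp3-positive cells (Gatad2b), where 8.03% of all genes did, and 1 in other CD4 T cells (Mta2), where 6.86% did. None of them passed in the CD8, Trdc-positive, NK-like, B-like or myeloid class, nor in the alveolar macrophage-like or nonclassical monocyte-like cells. The median log2 ratio of the complex was -0.31 in Foxp3-positive cells, beside -0.020 for all genes, and 0.14 in other CD4 T cells, beside 0.00380. Chd4, its remodelling enzyme, had a ratio of 1.00 (0.804 to 1.24) in other CD4 T cells. The corepressor genes Ctbp1, Ctbp2, Sin3a and Sin3b passed in 0 of these comparisons, and so did Ikzf5 (Pegasus), a further family member, where it could be read.

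Genes known from regulatory T cells were set beside Ikzf2 in the remaining T cell classes as well. In Foxp3-positive cells 1 of 14 was past 2-fold upwards with the KO label (Capg) and 3 downwards (Il2ra, Il1rl1 and Gata3), with a list median of 0.30 on the log2 scale, where 3.997% of all genes were higher and 8.03% lower. In CD8 T cells, where Ikzf2 was lower, 3 of 11 were higher (Il2ra, Tnfrsf9 and Capg) and 1 lower (Itgae), against 2.73% and 4.399% of all genes, with a median of 0.20. In Trdc-positive cells 6 of 10 were higher (Il2ra, Tnfrsf9, Nrp1, Areg, Capg and Icos) and 1 lower (Tnfrsf18), against 9.97% and 11.7% of all genes, while Ikzf2 was lower. Of the genes that could be read, 7 of 11 were higher in Foxp3-positive than in other CD4 cells with the KO label and 14 of 14 with the WT label, against the 5.50% and 7.41% of genes given above. More of the other CD4 cells lay in the regulatory T cluster with the KO label, so these counts rest on unlike comparison cells.

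The genes whose level followed each member over 33 points, the classes of both libraries with at least 20 cells, were ranked among 13155 genes by the correlation of log2(CPM + 10). The points share 2 libraries and the same cells' totals, so the correlations are descriptions. Nearest to Ikzf1 were Dock2 (Pearson's r 0.930), Pik3cd, Aim2, Sash3 and Cd53. Nearest to Ikzf2 were Tox (0.923), Icos, Tesc, Camk4 and Lat, and to Ikzf3 Rasgrp1 (0.938), Fryl, Nfatc3, Ptprcap and Rad18. Ikzf4 was followed by Itgb8 (0.904), Tnfrsf4, Lrig1, Izumo1r and Neb. Among the members, Ikzf2 had a correlation of 0.662 with both Ikzf3 and Ikzf4, Ikzf1 one of 0.593 with Ikzf3 and 0.325 with Ikzf2, and Ikzf1 and Ikzf4 one of -0.0436.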

How the data were processed

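Members, gene lists and the ways of splitting cells were chosen with earlier results of these data known. The authors deposited, for each library, unnormalized UMI counts of genes and antibody tags in called cells, and the submitters' processing notes name Cell Ranger 9.0.1 and the build GRCm39/mm39. Counts are of the 3' end. Removal of free RNA is not given in the sources used here. Following the study's methods, cells with at least 500 UMIs, at least 200 genes and at most 20% mitochondrial UMIs were kept (10495 and 19342), and ribosomal, mitochondrial and Gm- genes (18.9% and 16.5% of UMIs) were left out. Both libraries were clustered together (scanpy 1.11.5 under Python 3.11.15, leidenalg 0.10.2, numpy 2.4.6, scipy 1.17.1, R 4.3.3: 2000 variable genes without the members and gate genes, 50 components, 15 neighbours, resolution 0.8). Cells that Scrublet called doublets (346 and 1147) were then left out. The libraries shared 74 cell barcodes.

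Clusters were named from fixed markers when at least 3 were raised 1.5-fold. A rule that left a T cell cluster unnamed when another lineage's markers led its top genes was revised after its results were seen. T cells, from clusters with a Cd3e UMI in at least 30% of cells, were gated by UMIs: Foxp3 without Cd8a or Cd8b1, Trdc without Foxp3, Cd4 or CD8 genes, and CD4 or CD8 alone. An antibody tag counted as present from 30 UMIs. CPM are UMIs per 1000000 UMIs of the class. Ratios, with exact conditional binomial 95% intervals, were formed from 30 UMIs over both sums, and shares have exact Clopper-Pearson intervals. With 1 library per genotype no test was made. The genes named are the members, Ikzf5, Gfi1, the gate and splitting genes, the fixed lists and, for each member, the 5 genes most alike. Genes that lead a cluster only identify it. The intervals were tested only on simulated Poisson counts, the assumption they are built on. That simulation did not cover UMIs concentrated in single cells. Splits of T cells by some other genes are not reported here.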

Additional observations from a re-analysis of the deposited data

Results flagged for a closer look

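Ikzf2 moved in opposite directions between classes. Its log2 ratio of the GFI1 KO label over the WT label was 1.36 in other CD4 T cells and -1.90 in B-like cells, 3.26 apart, and its interval was wholly above 0 in 3 classes and wholly below 0 in 4. The B-like value rests on 3 and 44 UMIs, at levels not above those of endothelial-like cells. Foxp3-positive cells are among the classes above 0, at 0.34. Their value kept its sign in only 12 of 14 other ways of processing, with a lowest value of -0.21. The other CD4 class was made up of different clusters under the labels. The difference was not tested, since there was 1 library per label.

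Ikzf3 was also split. Its log2 ratio was 1.59 in Trdc-positive cells and -1.05 in myeloid cells, 2.64 apart, with intervals wholly above 0 in 4 classes and wholly below 0 in 2. This difference was not tested either. Both classes were made up differently under the labels: Trdc-positive cells fell into different clusters and myeloid cells into different types. With γδ T cells taken from named clusters, itself a comparison of mostly different clusters, the Ikzf3 value was -0.13. The myeloid levels of 4.46 and 9.23 CPM were above the WT-labelled endothelial-like level of 1.43 CPM, and with the KO label the 5 endothelial-like UMIs came from 1 cell.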

How the results depend on the processing

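No paired analysis was possible because there was 1 library per genotype, and leaving out a replicate was not possible for the same reason. Over 32 log2 ratios and 14 alternatives, 447 values were obtained: 394 stayed within counting error of the reported value, 51 moved and 2 reversed, and the cause was not tested. The sign changed in 8 of the 447, all of them given here, and Ikzf3 with doublets kept (0.0707) and thinned Ikzf4 (-0.40), both in Foxp3-positive cells, are among those within counting error. Ikzf1 stayed below 0 between labels in all 7 classes under all 14. With γδ T cells taken from named clusters, its value compared mostly different clusters.

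With T cell classes taken from named clusters, 2 ratios between labels reversed in γδ T cells, Ikzf2 to 0.80 and Ikzf3 to -0.13. The other values that moved there were Ikzf1 in other CD4 T cells (-0.14) and γδ T cells (-0.93), and Ikzf2 in Foxp3-positive (0.0924) and CD8 T cells (-0.32). Regulatory over other CD4 T cells became -0.89 (KO) and -0.64 (WT) for Ikzf1, 3.13 and 4.32 for Ikzf2, 1.66 and 2.42 for Ikzf3 and, in WT, 1.18 for Ikzf4. With antibody tags Ikzf2 was 1.05 in other CD4 and -0.39 in CD8 T cells.

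Thinned to 1500 UMIs, Ikzf1 was -0.43 in CD8 T cells and -0.15 in myeloid cells. Ikzf2 was -0.11 in Foxp3-positive, 1.66 in other CD4, -0.86 in CD8, -0.25 in B-like and -0.14 in myeloid cells, and 2.29 (KO) and 4.06 (WT) in Foxp3-positive over other CD4 cells. Ikzf3 was -0.63 in Foxp3-positive, 0.0235 in NK-like, 0.0295 in B-like and -0.55 in myeloid cells. As a mean over cells, Ikzf1 was -0.27 in CD8 and -0.18 in myeloid cells, Ikzf2 0.15 in Foxp3-positive and -0.50 in myeloid cells, Ikzf3 -0.61 in myeloid cells, and Foxp3-positive over other CD4 cells in WT 3.92 for Ikzf2 and 1.81 for Ikzf3.

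With at least 2 Foxp3 UMIs, Foxp3-positive cells gave -1.76 for Ikzf1, -0.21 for Ikzf2 and 0.27 for Ikzf3 between labels, and -2.65, 2.24 and 1.26 over other CD4 cells in KO. With doublets kept, Ikzf2 was -1.005 in Trdc-positive cells and 2.93 in Foxp3-positive over other CD4 cells in KO, and Ikzf3 0.0937 in CD8 and -1.37 in myeloid cells. With all genes in the total, Ikzf1 was -0.28 in CD8 and -0.39 in myeloid cells and Ikzf2 3.84 in Foxp3-positive over other CD4 cells in WT. Centred on the median gene, myeloid Ikzf1 was -0.16 and Ikzf2 -0.48. With each library clustered alone, myeloid Ikzf3 was -1.40, and at resolution 1.2 Foxp3-positive over other CD4 cells was 2.39 for Ikzf2 in KO and 1.25 for Ikzf3 in WT.

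Leaving out doublet-rich T cell clusters, shared barcodes or the cell with the most UMIs, chosen after seeing the data, moved none. The share of genes past 2-fold depended on the minimum: with 10 and 100 UMIs it was 21.0% and 6.26% in Foxp3-positive, 11.6% and 4.23% in CD8, 15.6% and 6.08% in NK-like, 8.22% and 1.66% in B-like, 8.70% and 1.62% in alveolar macrophage-like and 6.91% and 1.67% in nonclassical monocyte-like cells, and with 100 UMIs 6.93% in other CD4 T cells. Low counts limit Ikzf4, and 25 KO-labelled Foxp3-positive cells limit every value of that class.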
